A study of Mus musculus with 22 samples.

Results

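The control arm of a mouse model of neonatal hypoxic-ischemic encephalopathy (HIE) was used to compare brain CD11b+ cells at 2 postnatal ages, P7 and P14. The 8 control animals, 4 at each age, were chosen by their treatment label from the 20 animals (22 RNA libraries) of the series. All were wildtype CF-1 mice, an outbred stock, so animals also differ in genotype. According to the study's methods, control dams received saline on E18 and control pups breathed normal air on P6, and cells carrying CD11b, an integrin of myeloid cells, were pulled from dissociated whole brain with magnetic beads.

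The P7 controls were the pups P6H55-7, P6H55-12, P6H63-7 and P6H63-8, and the P14 controls were P4H4-7F, P4H4-8M, P6H8-7M and P6H8-8F. The part of each name before the hyphen is called a litter here, although the labels do not define it. Each litter gave 1 male and 1 female. The age of the first 4 pups is uncertain: the methods and the protocol label place collection on P7, whereas their time labels read P8 and P9 for the P6H63 pups and P10 and P11 for the P6H55 pups. They are called P7 throughout. Each litter belonged to 1 age, and the ages came in separate count tables of different depth (70191541 to 83469037 counts per P7 library, 29751486 to 39348972 per P14 library), so age, litter, table and depth cannot be told apart. The p-values below therefore measure the spread between these animals only. Littermates were fitted as separate animals, so the litter is not the unit of these p-values.

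Microglia, the resident macrophages of the brain, enter it as embryonic precursors and multiply through the first postnatal weeks before they stop dividing and take on a mature profile. That mature profile is known for purinergic and chemokine receptors that sense the surrounding tissue (P2ry12, Cx3cr1), for Tmem119, and for dependence on the receptor Csf1r and on transforming growth factor beta. Early postnatal white matter also holds a transient microglial state, rich in lipid-handling and lysosomal genes and in Spp1, Igf1 and Gpnmb. Myelination starts in the same weeks.

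Before any gene was compared, the lists of cell type markers were used to ask what RNA each preparation held. Summed over 16 microglial markers, the level was 1691 and 2654 CPM (counts scaled to a common library total) in the P6H63 pups, 15821 and 17870 CPM in the P6H55 pups, and 20827 to 27821 CPM in the P14 animals. The P6H63 pups thus lay far below the other 6 animals in every sum of this kind that belongs to myeloid cells. Border macrophage markers (13 genes) summed to 1008 and 1408 CPM in the P6H63 pups against 3295 to 6710 CPM elsewhere. Conversely, meningeal fibroblast markers (10 genes) reached 2512 and 2876 CPM in the P6H63 pups and 544 to 911 CPM in the other 6, and endothelial markers (12 genes) reached 3545 and 4071 CPM against 1294 to 2010 CPM. In such mixed RNA, fewer cells of a type and less RNA per cell cannot be told apart.

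The cell type label reads monocytes. The 16 neutrophil and monocyte markers summed to 56.9 and 68.1 CPM in the P6H63 pups and to 161 to 266 CPM in the other 6 animals, and Ly6c2, a surface antigen of inflammatory monocytes, measured 0.348 to 3.31 CPM in the 8 animals. Of 16 lymphocyte markers, 6 had enough counts to test. Ccr2, the chemokine receptor of circulating monocytes, was the 1 called gene of the former list and rose from 1.78 to 10.1 CPM at P7 to 13.7 to 24.5 CPM at P14 (log2 fold change 1.90 ± 0.56 SE, adjusted p = 0.032 in edgeR's quasi-likelihood test). Against the P6H55 pups alone Ccr2 rose by 1.19, while 2 other markers of that list fell. The list median was 0.45 in the 8 animals and -0.32 against the P6H55 pups, where 13 of the 16 markers were lower at P14. Because the P6H63 pups weigh on every microglial comparison, the list counts below are given for all 8 animals and for the P6H55 pups alone against the same 4 P14 animals. A named gene said to have changed and given with 1 log2 value, from the 8 animals, passed in both fits. The 2 fits share their P14 animals and P6H55 pups, so the second shows what the first owes to the P6H63 pups and is not a repeat of it. In the second fit the P7 group is a single litter, so its p-values hold no spread between P7 litters.

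**Figure D1:**
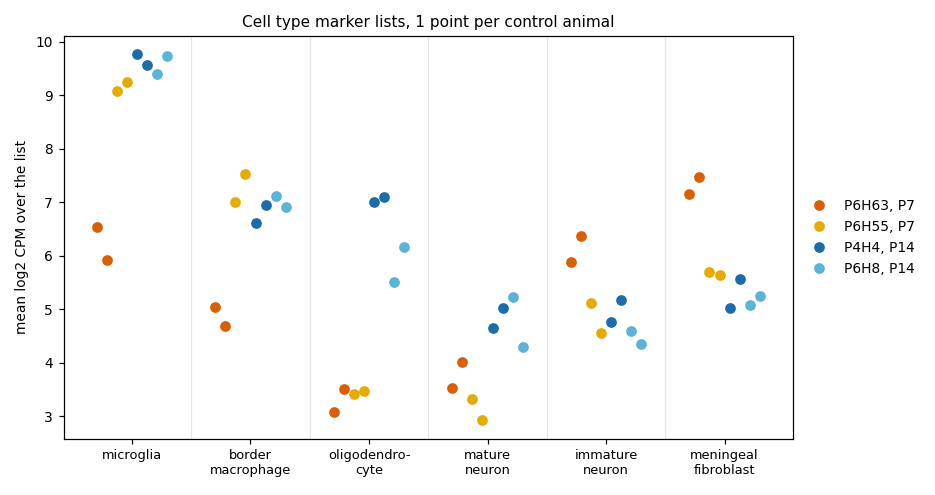
Mean log2 CPM over 6 lists of cell type markers, 1 point per control animal, colored by litter (2 animals each). The P6H63 pups sit lowest for microglia (5.91 and 6.55) and highest for meningeal fibroblasts, and the 4 P14 animals sit highest for oligodendrocytes.

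Of 22320 genes tested in the 8 animals, 3490 (15.6%) were higher and 3873 (17.4%) lower at P14 at an adjusted p under 0.05. With the P6H55 pups alone, 3302 (14.8%) were higher and 3527 (15.8%) lower. Both fits called 2470 genes higher and 2540 lower, and no gene was called in opposite directions. Levels of 4186 genes (18.8%) were above all P7 values in all 4 P14 animals, and those of 4088 (18.3%) were below. With the P6H63 pups as the only P7 animals, 6127 of the 22320 genes were higher and 6889 lower. With the level of the microglial markers as a covariate in the 8 animals, 3089 were higher and 3841 lower. These shares and counts are the background against which the counts in each list are given, each for its own fit. The calls in the 8 animals were 47.4% higher with the usual trimmed-mean scaling and 32.4% higher (2612 against 5454 lower) when scaled by library size only, and the median over all genes moved from -0.02 to -0.23 on the log2 scale.

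The clearest change was in cell division. All 30 S-phase genes and all 30 mitotic genes that were tested fell, in both fits, and each was lower in every P14 animal than in every P7 animal. The median log2 fold change was -2.02 for S phase (-1.98 with the P6H55 pups alone) and -2.19 for mitosis (-2.25). Over all genes the medians were -0.02 and 0.03.

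Mki67, which encodes the Ki-67 protein of dividing cells (chr7:135291513-135318299, GRCm39), measured 501 and 448 CPM in the P6H55 pups and 367 and 336 CPM in the P6H63 pups. At P14 it measured 117 and 124 CPM in P4H4 and 106 and 64.5 CPM in P6H8. The ages did not overlap, and the log2 fold change was -2.004 ± 0.24 (adjusted p = 0.00093) in the 8 animals and -2.20 (adjusted p = 0.000696) with the P6H55 pups, in edgeR's quasi-likelihood test.

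Genes of DNA replication fell by differing amounts. Uhrf1, which carries DNA methylation onto the new strand (chr17:56610275-56630489), fell the most of the S-phase genes, from 95.3 to 119 CPM at P7 to 10.9 to 16.1 CPM at P14 (log2 fold change -3.03 ± 0.16). Rrm2, the regulated subunit of ribonucleotide reductase, changed by -2.77, and Cdc6, which loads the replicative helicase, by -2.78. Mcm2, a subunit of that helicase, changed by -2.17, and Pcna, the polymerase clamp, by -1.06. The smallest change was that of Pola1, the catalytic subunit of the priming polymerase, at -0.66 ± 0.14 (adjusted p = 0.00928 in edgeR's test). Ranges of the replication genes did not overlap between the ages in any of these cases.

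Among the mitotic genes Ube2c, the ubiquitin carrier of the anaphase-promoting complex, fell the most. It measured 30.2 to 36.9 CPM in the 4 P7 pups and 2.96 to 6.19 CPM at P14 (log2 fold change -2.91 ± 0.26, adjusted p = 0.000335 by edgeR). Plk1, a mitotic kinase, changed by -2.88, Cdca8, a subunit of the chromosomal passenger complex, by -2.68, and Ccnb1, cyclin B1, by -2.58. Top2a, the topoisomerase that untangles sister chromatids, changed by -2.08, Cdk1, the kinase partner of cyclin B1, by -2.01, and Anln, a scaffold of the cleavage furrow, by -1.38, the smallest of the list.

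The P7 litters were alike in cell division and unlike in microglial markers. Summed S-phase genes measured 1243 and 1360 CPM in the P6H63 pups and 1382 and 1520 CPM in the P6H55 pups, against 341 to 461 CPM at P14. Summed mitotic genes measured 1777 and 1847 CPM in P6H63, 1944 and 2181 CPM in P6H55 and 314 to 572 CPM at P14. Which cells held this RNA was not tested. In background, cells other than microglia also divide at this age, and the P6H63 preparations held more RNA of meningeal and vascular markers.

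The P14 litters also stood apart from each other. Mitotic genes summed to 519 and 572 CPM in P4H4 and to 314 and 430 CPM in P6H8, a smaller gap than that between the ages.

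Promoter sequences of the members are shown because the timing of such genes is read from short elements near their start sites: in background, E2F factors act on S-phase genes, and the cell cycle homology region (CHR) together with CCAAT boxes acts on mitotic genes. Windows of 300 bases, 250 before and 50 after each RefSeq start on GRCm38.p6, were found for 23 of the 30 S-phase genes (28 windows) and 26 of the 30 mitotic genes (27 windows). The CHR letters TTTGAA or TTCGAA, searched on both strands, lay in 20 of 27 mitotic windows (74.1%), in 5 of 28 S-phase windows (17.9%) and in 19.2% of all 32851 windows. CCAAT was in 81.5%, 60.7% and 37.4% of the same sets. The E2F letters TTTCCCGC, TTTCGCGC, TTTGCCGC or TTTGGCGC were in 3.7% of mitotic windows, 35.7% of S-phase windows and 2.26% of all windows.

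A match in these windows is a description of the letters, not of a bound site. The genes shown had the largest falls among those with a single window and a match in the printed stretch. That match was to CHR for mitotic genes and to E2F for S-phase genes, so they hold it by choice. The first pair below are mitotic genes, 150 bases before to 30 after the start, with CHR and CCAAT matches of either strand in capitals. They are Ube2c on the plus strand (chr2:164769779-164769958) and Cdca8 on the minus strand (chr4:124936888-124937067), where the CHR match shares a base with a CCAAT match.
Ube2c: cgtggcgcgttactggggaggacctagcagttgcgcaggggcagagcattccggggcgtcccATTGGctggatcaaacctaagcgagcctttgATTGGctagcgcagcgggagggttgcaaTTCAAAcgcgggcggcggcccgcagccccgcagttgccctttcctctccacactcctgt
Cdca8: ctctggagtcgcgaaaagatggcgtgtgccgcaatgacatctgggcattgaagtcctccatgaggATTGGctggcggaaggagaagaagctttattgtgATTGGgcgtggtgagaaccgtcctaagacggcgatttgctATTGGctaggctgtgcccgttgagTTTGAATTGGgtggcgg
The second pair are S-phase genes with E2F matches in capitals, Cdc6 (chr11:98908001-98908180) and Hells, a chromatin remodeler of replicating DNA (chr19:38930840-38931019), both on the plus strand.
Cdc6: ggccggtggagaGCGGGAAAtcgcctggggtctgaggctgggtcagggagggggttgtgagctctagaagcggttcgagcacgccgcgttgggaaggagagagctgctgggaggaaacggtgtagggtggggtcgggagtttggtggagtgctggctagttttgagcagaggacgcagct
Hells: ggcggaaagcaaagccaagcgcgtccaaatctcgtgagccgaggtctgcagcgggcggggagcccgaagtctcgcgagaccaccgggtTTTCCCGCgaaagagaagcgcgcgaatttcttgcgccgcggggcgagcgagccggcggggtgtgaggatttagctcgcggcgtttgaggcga
Hells measured 33.5 to 43.3 CPM at P7 and 6.502 to 9.20 CPM at P14 (log2 fold change -2.32), and the values of Ube2c, Cdca8 and Cdc6 stand above.

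Replication-dependent histone genes, whose messages lack a poly(A) tail and are kept by ribosomal RNA depletion, were added to the lists after the values had been seen. Of 67 such genes 64 were tested, and 55 fell in the 8 animals and 52 with the P6H55 pups, with none higher in either fit (median -1.94 and -1.80). H3c15, a histone H3 gene, measured 131 to 217 CPM at P7 and 7.12 to 11.2 CPM at P14 (log2 fold change -4.36 ± 0.24). H2ac12, a histone H2A gene, measured 25.5 to 62.5 CPM at P7 and 1.01 to 1.81 CPM at P14 (-5.14 ± 0.35). Histone genes are near-identical copies among which RSEM divides shared reads, so the value of a single member is less certain than the list. Neil3, a DNA glycosylase of dividing cells outside the lists, fell by 3.61 on the log2 scale.

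**Figure D2:**
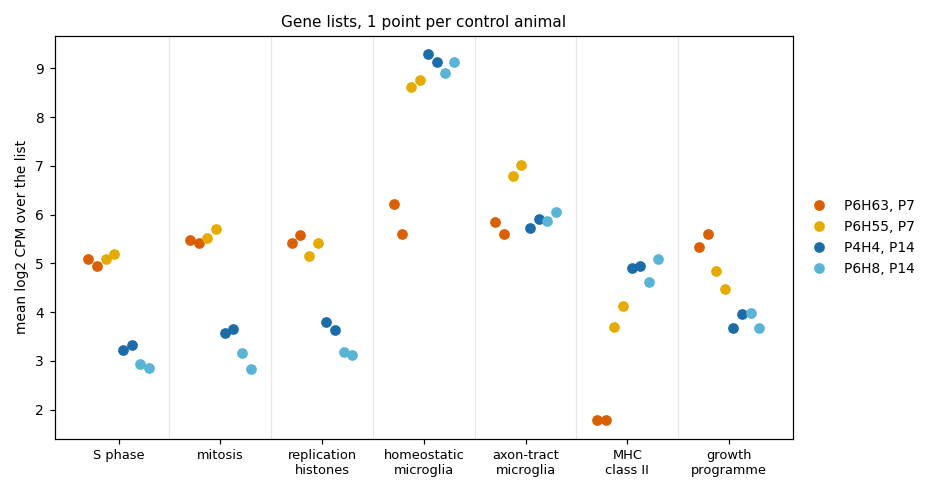
Mean log2 CPM over 7 gene lists, 1 point per control animal, colored by litter (2 animals each). The 3 lists of cell division separate the ages in all 8 animals, while the homeostatic list places the P6H63 pups (5.61 and 6.23) far below the other 6 animals (8.63 to 9.29).

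Genes of the mature microglial profile changed by amounts that depended on the P7 litter. Of 28 homeostatic genes tested, 5 rose and none fell in the 8 animals (median 1.43), 15 rose and 1 fell with the P6H55 pups alone (median 0.61), and 17 were higher in every P14 animal than in every P7 pup. With the P6H63 pups as the only P7 animals 27 rose (median 3.25), and with the level of the microglial markers as a covariate 7 rose and 6 fell (median 0.10). Of all 22320 genes, 6127 rose in the former fit, and 3089 rose and 3841 fell in the covariate fit. The list and that covariate share genes. The 5 of 28 lie near the 15.6% of all genes that rose in the 8 animals.

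Selplg, the P-selectin ligand found on microglia (chr5:113956597-113970705), had the largest change of the list. It measured 246 and 221 CPM in P6H55, 36.5 and 21.7 CPM in P6H63, and 842 to 1341 CPM at P14, so every P14 animal was above every P7 pup. The log2 fold change was 3.10 ± 0.76 (adjusted p = 0.0171) in the 8 animals and 2.28 ± 0.21 (adjusted p = 0.000466) with the P6H55 pups in edgeR's test. Tmem119, a membrane protein used to mark microglia (chr5:113931781-113938577), measured 443 and 360 CPM in P6H55, 67.4 and 45.7 CPM in P6H63 and 1148 to 1667 CPM at P14, with changes of 2.68 (adjusted p = 0.022) and 1.88 (adjusted p = 0.000717).

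The other 3 called genes were Tgfbr1, a receptor of transforming growth factor beta (log2 fold change 2.14, and 1.37 with P6H55), Sting1, the adaptor of cytosolic DNA sensing (1.70 and 0.97), and Sparc, a matrix glycoprotein. Sparc differed least between the P7 litters, at 1871 and 2170 CPM in P6H55 and 1656 and 1385 CPM in P6H63, against 3967 to 5156 CPM at P14 (1.37 ± 0.25, adjusted p = 0.00567 by edgeR). Its P7 and P14 ranges did not overlap in either litter. The P6H63 pups held far less RNA of microglial markers than the P6H55 pups, and which cells held the Sparc RNA was not tested.

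The defining receptors were less clear. P2ry12, which senses nucleotides, measured 2005 and 1932 CPM in P6H55, 233 and 143 CPM in P6H63 and 3298 to 4646 CPM at P14. The 2 P7 litters differed by more than P6H55 differed from P14, and the change was 1.88 ± 0.81 (adjusted p = 0.102) in the 8 animals and 1.02 (adjusted p = 0.00506) with P6H55, in edgeR's test. Csf1r passed only with the P6H55 pups (0.61, adjusted p = 0.03), as did C1qa, a complement gene that microglia make (0.87, adjusted p = 0.00883).

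Cx3cr1, the fractalkine receptor, measured 3204 and 2788 CPM in P6H55 against 3181 to 4103 CPM at P14, which overlapped, and passed in neither fit (0.30 with P6H55, adjusted p = 0.201). Gpr84, a receptor for medium-chain fatty acids, was the 1 homeostatic-list gene that fell, from 88.7 and 103 CPM in P6H55 to 18.8 to 33.5 CPM at P14 (-1.82, adjusted p = 0.00114), while the P6H63 pups, at 15.9 and 7.90 CPM, were at or below the P14 animals.

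Genes of the transient white matter state moved the other way in the 2 fits that hold the P6H55 pups. Of 24 tested, 8 fell in the 8 animals and 16 with the P6H55 pups, and none rose in either fit (medians -0.71 and -0.98). With the P6H63 pups as the only P7 animals 9 rose and 8 fell (median -0.07), beside 6127 higher and 6889 lower of all 22320 genes in that fit. Spp1, which encodes osteopontin (chr5:104582165-104589235), measured 719 and 508 CPM in P6H55, 261 and 244 CPM in P6H63 and 36.9 to 57.4 CPM at P14, with no overlap (log2 fold change -3.16 ± 0.38, adjusted p = 0.000995, and -3.66 with P6H55, by edgeR).

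Fabp5, a fatty acid carrier (chr3:10077602-10081674), measured 84.3 and 88.4 CPM in P6H55, 148 and 159 CPM in P6H63 and 24.1 to 31.9 CPM at P14 (-2.10, and -1.62 with P6H55). It was highest in the pups that were low in microglial markers, and which cells held this RNA was not tested. Csf1, a ligand of Csf1r, measured 133 to 399 CPM at P7 and 77.4 to 105 CPM at P14 (-1.36, and -1.78). Smaller falls passed for Lgals3, a galectin (-0.99), Cd63, a tetraspanin of late endosomes (-0.85), and Ldha, lactate dehydrogenase (-0.79).

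Several genes of this list passed only without the P6H63 pups. Lpl, lipoprotein lipase, measured 140 and 136 CPM in P6H55, 39.3 and 29.4 CPM in P6H63 and 24.9 to 41.3 CPM at P14 (-1.41, adjusted p = 0.0614, and -2.08 with P6H55, adjusted p = 0.000412, by edgeR). The P6H63 pups overlapped the P14 animals. Igf1, a growth factor, changed by -1.01 (adjusted p = 0.0909) and -1.60 (adjusted p = 0.00123), and Gpnmb, a glycoprotein of lysosome-rich macrophages, by -1.38 (adjusted p = 0.0542) and -1.83 (adjusted p = 0.0146). Apoe, the lipid carrier, passed in neither fit (0.66, and 0.08 with P6H55).

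Of 24 transcription factors of microglia, 2 rose and 2 fell in the 8 animals, and 2 rose and 6 fell with P6H55. Mef2a, a factor bound at mature microglial enhancers, rose by 1.13 (0.63 with P6H55). Smad3, which acts downstream of transforming growth factor beta receptors, rose by 0.55 in the 8 animals and measured 0.32 (adjusted p = 0.106) with P6H55. Bhlhe40, a basic helix-loop-helix repressor, and Rara, a retinoic acid receptor, changed by -1.45 and -1.303. Against the P6H63 pups alone 19 rose and 4 fell (median 1.46, beside -0.04 with P6H55), and 15 of the 24 were below 0 with P6H55 and 6 in the 8 animals. Spi1, which encodes the myeloid factor PU.1, was one of those whose sign turned on the litter. It measured 231 and 192 CPM in P6H55, 31.3 and 19.9 CPM in P6H63 and 110 to 126 CPM at P14, so the P14 animals lay between the P7 litters (0.02 in the 8 animals, and -0.81 with P6H55, adjusted p = 0.00177 by edgeR).

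**Figure D3:**
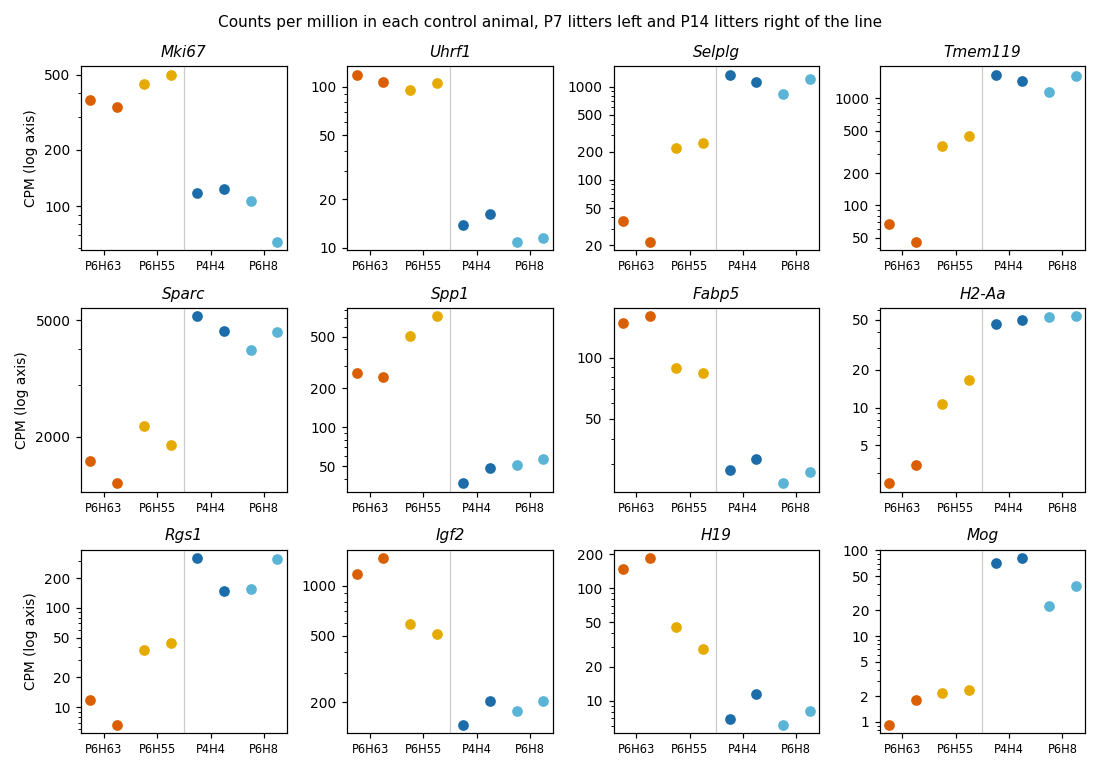
CPM of 12 genes in each control animal on log axes, with the P7 litters left of the line and the P14 litters right of it (2 animals per litter). Mki67 and Uhrf1 differ more between the ages than between the P7 litters, whereas Selplg, Tmem119 and Rgs1 differ between the P7 litters by several-fold as well.

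RNA of MHC class II, which shows peptides to helper T cells and is carried in brain mainly by border macrophages, dendritic cells and activated microglia, rose. Of 12 genes 5 rose in the 8 animals (median 1.83) and 8 rose and 1 fell with P6H55 (median 1.17), and 9 were higher in every P14 animal than in every P7 pup. With the level of the microglial markers as a covariate 7 rose and 1 fell (median 0.66). H2-Aa, a class II alpha chain (chr17:34493404-34506798), measured 16.7 and 10.8 CPM in P6H55, 2.49 and 3.51 CPM in P6H63 and 46.4 to 53.1 CPM at P14 (log2 fold change 2.59 ± 0.56, adjusted p = 0.0108, and 1.88 with P6H55, by edgeR). The 4 P14 animals lay within a narrow range.

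H2-Eb1 and H2-Ab1, class II beta chains, rose by 2.33 and 1.91, and Cd74, the invariant chain, rose from 9.97 to 79.4 CPM to 136 to 180 CPM (2.20, and 1.43 with P6H55). Ciita, the master activator of class II transcription, differed little between the P7 litters, at 1.80 and 1.38 CPM in P6H55 and 1.21 and 1.66 CPM in P6H63, and measured 4.12 to 6.33 CPM at P14 (1.76 ± 0.23, adjusted p = 0.00153, by edgeR). Of 13 border macrophage markers none passed in the 8 animals (median 0.58), 4 fell with P6H55 (median -0.22) and 12 rose against the P6H63 pups alone, and their part in the class II values was not tested.

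H2-Ea, a class II alpha chain (chr17:34560926-34563618), had no count in any of the 4 P7 controls and 11.0, 15.5, 14.5 and 13.7 CPM in the P14 controls. Against a floor of 3 counts in a library, at most 0.0429 CPM at P7, the P14 mean of 13.7 CPM was at least 318.9-fold higher, an allowance for counting error only. In the HIE animals it was 0 in both P14 animals of P4H1 and 21.7 and 21.0 CPM in those of P6H12, and 0.886, 1.26, 1.86 and 0 CPM in the 4 P7 animals. The gene thus also differed between litters of the same age. In background, some mouse H2 haplotypes carry a deletion that leaves H2-Ea silent, and the haplotypes of these outbred animals were not tested. H2-Ea is not a member of the class II list, so it does not enter the counts or the median of that list.

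In the other immune lists the share that rose in the 8 animals was below the 15.6% of all genes. MHC class I gave no call among 22 genes in the 8 animals and 3 lower with P6H55. Of 22 complement genes, 3 rose and 1 fell (4 and 4 with P6H55). Cr1l, a regulator of C3 on cell surfaces, rose by 0.51 and measured 0.26 with P6H55 (adjusted p = 0.0923 by edgeR), while Cfi, the protease that cuts C3b, fell by 2.38 at under 2 CPM in all 8 animals and did not pass with P6H55 (adjusted p = 0.163 by edgeR).

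Of 35 interferon-response genes, 5 rose and 1 fell (3 and 3 with P6H55). Among those that rose were Mx2, Ifit3, Ifit3b and Ifih1, by 1.00, 0.96, 0.84 and 0.57. With P6H55, Ifit3 (1.08) and Ifit3b (1.03) also passed, while Mx2 (0.86, adjusted p = 0.0586 by edgeR) and Ifih1 (0.41, adjusted p = 0.0935) did not. Ifitm2, a membrane restriction factor, fell by 0.95. Of 24 Toll-like receptor pathway genes, Tlr3, which senses double-stranded RNA, and Tlr12 rose by 1.04 and 0.59, and 3 rose and 4 fell with P6H55.

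Cytokines and early-response genes had list medians of opposite sign against the P7 litters. Of 26 cytokine genes, 2 rose and 2 fell in the 8 animals, and 2 rose and 16 fell with P6H55 (medians -0.37 and -1.12). With the P6H63 pups as the only P7 animals 16 rose and 1 fell (median 1.00). Tnf measured 156 and 183 CPM in P6H55, 41.0 and 17.9 CPM in P6H63 and 19.99 to 47.6 CPM at P14 (-1.68, adjusted p = 0.0856, and -2.44 with P6H55, adjusted p = 0.00112, by edgeR). Ccl3, a macrophage chemokine, showed the same layout, at 566 and 295 CPM in P6H55, 79.2 and 44.3 CPM in P6H63 and 94.4 to 134 CPM at P14. The P6H55 pups alone were high in both genes.

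The 2 genes that rose in the 8 animals were Il18, an inflammasome cytokine (0.81, and 0.61 with P6H55), and Cxcl16, a membrane-bound chemokine (0.89 and 0.44). Lif, an interleukin-6 family cytokine, fell by 1.91 and by 2.42 with P6H55.

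Of 25 immediate early and heat shock genes, which enzymatic dissociation of tissue can also raise, 3 rose and 2 fell in the 8 animals and 3 rose and 16 fell with P6H55 (median -0.70, and 0.54 against the P6H63 pups alone). Summed, they measured 7020 and 8703 CPM in P6H63, 21854 and 22926 CPM in P6H55 and 10184 to 13024 CPM at P14. Egr1, an early growth response factor, measured 3308 and 3724 CPM in P6H55, 1227 and 1083 CPM in P6H63 and 782 to 1270 CPM at P14 (-1.28, adjusted p = 0.0554, and -1.86 with P6H55, adjusted p = 0.000749, by edgeR). Fosb fell by 1.45 and by 1.96, but its values overlapped between the ages, at 604 to 2005 CPM at P7 and 354 to 720 CPM at P14. How dissociation differed between the batches of animals was not tested.

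In the list of immediate early and heat shock genes, 3 genes rose in both fits. Rgs1, a regulator of chemokine receptor signaling (chr1:144118034-144124980), measured 44.6 and 37.8 CPM in P6H55, 11.9 and 6.59 CPM in P6H63 and 147 to 319 CPM at P14 (3.21 ± 0.64, adjusted p = 0.00805, by edgeR). Hspa1a and Hspa1b, near-identical Hsp70 genes, rose by 2.53 and 1.87, and both were highest in the P6H8 animals.

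A programme of growth genes that is switched down in many organs after birth was lower at P14. Of 20 genes, 11 fell and 1 rose in the 8 animals, and 13 fell and 2 rose with P6H55 (medians -1.17 and -1.09). Igf2, a fetal growth factor from an imprinted locus (chr7:142204503-142220694), measured 516 and 592 CPM in P6H55, 1174 and 1462 CPM in P6H63 and 146 to 205 CPM at P14 (-2.36 ± 0.36, adjusted p = 0.00285, and -1.59 with P6H55, by edgeR). H19, the noncoding RNA of that locus (chr7:142129262-142133957), measured 28.7 and 44.9 CPM in P6H55, 149 and 185 CPM in P6H63 and 6.09 to 11.4 CPM at P14 (-3.64, and -2.16). Both genes fell in either fit, and both were higher in P6H63 than in P6H55.

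Plagl1, an imprinted zinc finger factor, fell by 2.60 (1.44 with P6H55), Mest, another imprinted gene, by 2.27 (1.28), Grb10, an imprinted inhibitor of insulin signaling, by 2.15 (0.96), and Igf2bp1, an RNA-binding protein of fetal tissue, by 3.09 (2.58). Ezh2, the methyltransferase of Polycomb complex 2, was level across the P7 pups (51.7 to 54.4 CPM) and fell to 22.1 to 29.4 CPM. Hmga2, a chromatin protein, was the gene that rose (1.74), from 0.286 to 1.14 CPM to 2.06 to 3.72 CPM. Fibroblast markers moved with this list: 8 of 10 fell in the 8 animals and 3 fell with 1 higher with P6H55, and Col1a1, the collagen I alpha chain, fell by 2.19 and by 0.91. The part of fibroblast RNA in the fall of Igf2 and H19 was not tested.

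RNA of other brain cells also differed between the ages. Of 15 oligodendrocyte markers, 13 rose in the 8 animals and 14 with P6H55 (medians 3.39 and 3.42), and their sum was 506 to 811 CPM at P7, 6212 and 6808 CPM in P4H4 and 2238 and 3512 CPM in P6H8. Mog, a surface glycoprotein of the myelin sheath, measured 0.917 to 2.36 CPM at P7 and 22.3 to 81.2 CPM at P14 (4.88 ± 0.50, adjusted p = 0.000549, by edgeR). Mbp, myelin basic protein, rose by 2.89, Mobp by 4.604, and Opalin, of myelinating oligodendrocytes, by 5.79. Within P7 the sum was 506 and 663 CPM in P6H63 and 748 and 811 CPM in P6H55, a small gap beside that between the ages. Trf, a member of the list, made up a large part of the P6H55 sums. It measured 423 and 335 CPM in P6H55 and 105 and 75.6 CPM in P6H63, so it was lower in the pups that were low in microglial markers.

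Of 15 mature neuron markers, 12 rose in the 8 animals and 13 with P6H55 (medians 1.41 and 1.75). Outside that list, genes of cerebellar granule neurons were among the largest rises of all genes. Gabra6, a GABA receptor subunit of those neurons (chr11:42197264-42211910), measured 0.104 to 0.286 CPM at P7, 9.07 to 16.4 CPM in 3 P14 animals and 59.2 CPM in P6H8-7M. Gabrd and Cbln3 rose by 5.21 and 4.97, and Slc17a7, a vesicular glutamate transporter on the marker list, by 3.23. Atoh1, the factor of granule neuron precursors, fell by 3.75 (1.72 with P6H55), from 1.07 to 13.01 CPM to 0.241 to 0.794 CPM.

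Immature neuron markers gave 2 lower of 15 and none with P6H55. OPC markers, of oligodendrocyte precursors, rose for 3 of 12 (8 with P6H55). Of 12 astrocyte markers, 2 fell in the 8 animals and 2 rose with P6H55. Choroid plexus markers gave 1 higher and 4 lower of 12, and with P6H55 1 higher. Of 10 ependymal markers, 2 fell in the 8 animals and 1 rose with P6H55, and of 10 mural markers 4 fell, with 4 higher and 4 lower with P6H55. Endothelial markers gave 1 higher and 3 lower of 12, and 2 higher and 1 lower with P6H55.

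Red cell genes rose for 3 of 9 markers in both fits. Hba-a1, an alpha globin gene with a near-identical copy, measured 1.12 to 1.98 CPM at P7, 490 and 860 CPM in P4H4 and 107 and 48.1 CPM in P6H8 (7.89). Hbb-bs, a beta globin gene, rose by 5.98, from 1.40 to 15.0 CPM to 45.7 to 726 CPM. The 2 P14 litters did not overlap, and the blood content of the brains was not tested.

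Lysosome and energy genes gave few rises and differing shares of falls. Of 30 phagocytosis and lysosome genes, 1 rose and 2 fell (2 and 9 with P6H55). Ctsh, a cathepsin, rose by 0.84, and Ctsk, another cathepsin, and Atp6v0d2, a proton pump subunit, fell by 0.88 and 1.65, of which Ctsk did not pass with P6H55 (-0.33, adjusted p = 0.306 by edgeR). Of 22 glycolytic genes 8 fell and 1 rose (9 and 2 with P6H55), Eno1 by 0.86 and Pkm by 0.65.

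Of 30 oxidative phosphorylation genes, 2 rose and 7 fell, and with P6H55 5 fell. Cyc1, cytochrome c1, fell by 0.73. Of 24 cholesterol genes 5 fell in either fit, among them Srebf2, the main activator of sterol synthesis (-0.99). Of 30 ribosomal protein genes 3 rose and 2 fell, and 2 rose and 7 fell with P6H55. Beside the 17.4% of all genes that fell in the 8 animals, the share that fell was higher in the glycolysis, oxidative phosphorylation and cholesterol lists and lower in the lysosome and ribosomal lists. Beside the 15.8% with P6H55 it was higher in the lysosome, ribosomal, glycolysis and cholesterol lists and near it for oxidative phosphorylation.

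**Figure D4:**
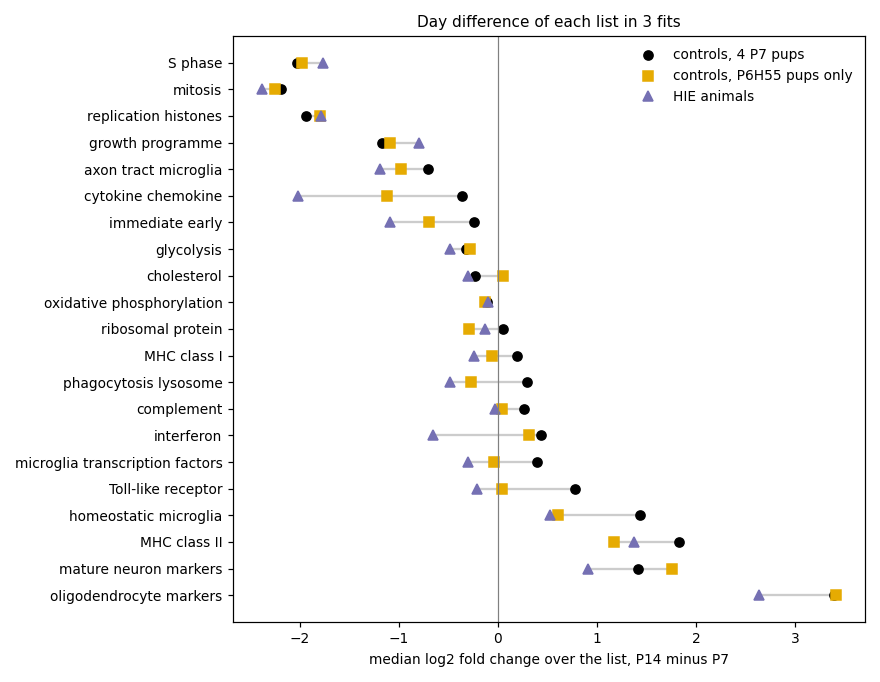
Median log2 fold change, P14 minus P7, of 21 lists in 3 fits (points: all 4 P7 controls, the P6H55 pups only, and the HIE animals). The cell division lists (-1.77 to -2.38) and oligodendrocyte markers (2.64 to 3.42) keep their direction in all 3, while cytokine, interferon and homeostatic lists spread widely.

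The 8 HIE animals, from dams given lipopolysaccharide on E18 and exposed to hypoxia on P6, gave a day difference in animals that share no library with the controls. They were 4 males labelled P7 (litters N5 and N8) and 4 P14 animals (1 male and 1 female of P4H1 and of P6H12), wildtype CF-1 mice as well, and their ages lay in the same 2 tables. Of 24693 genes, 4279 (17.3%) were higher and 3992 (16.2%) lower at P14 in them. All 30 S-phase and all 30 mitotic genes fell (medians -1.77 and -2.38), as did 54 of the 64 replication histone genes.

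Selplg rose by 2.09, Tmem119 by 1.73, Sparc by 1.32 and H2-Aa by 2.63, and Spp1 and Fabp5 fell by 3.62 and 2.11. Of the 28 homeostatic genes, however, 5 rose and 1 fell in HIE (median 0.53), a share of rises near the 17.3% of all genes. Of the 16 microglial markers 1 rose. In the class II list 6 of 12 rose, and in the list of the transient white matter state 17 of 24 fell. Oligodendrocyte markers rose for 13 of 15 (median 2.64). Igf2 measured -0.59 (adjusted p = 0.131) in the HIE animals beside -2.36 in the controls. Interferon genes gave 14 lower of 35 (median -0.65) in HIE and 5 higher and 1 lower in controls.

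The difference between the arms was tested directly, as the control change minus the HIE change. Of 24693 genes 1 passed in edgeR's test, and 3434 had an unadjusted p under 0.05. With the P6H55 pups as the P7 controls none of 25848 passed, and 2247 had an unadjusted p under 0.05. The gene was Vps37b, a subunit of the endosomal sorting complex, which rose by 0.58 in controls and measured -1.3002 in HIE (difference 1.83, adjusted p = 0.0262). The count rested on single pups: without P6H55-7 it was 1270 (293 with a positive difference, 977 with a negative one), without P6H55-12 it was 433, and without any 1 of the other 14 animals it was 0 or 1. A gene that passed in 1 arm only is therefore not shown to differ between the arms.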

How the data were processed

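RNA from CD11b+ cells of 8 control mouse brains was sequenced by the authors after ribosomal RNA depletion with a strand-specific kit. Per the paper's methods, the authors mapped reads to GRCm39 with an accelerated STAR and counted genes with RSEM, and deposited the expected counts unscaled (56691 genes, of which 56017 matched GENCODE M39). All count columns were mapped to a sample (0 left out). The authors' own tests used edgeR and DESeq2.

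Here these deposited values were rounded to integers, and libraries of 1 animal were summed. Genes were filtered with filterByExpr, scaled by TMM and tested with edgeR's quasi-likelihood test (edgeR 4.0.16, limma 3.58.1, R 4.3.3) with Benjamini-Hochberg adjustment over all tested genes, at 0.05. Every fold change is a log2 value of P14 minus P7, and CPM is the count scaled to a common library total. Alternatives included DESeq2 1.42.0, other scalings, covariates, single litters and each animal left out. A floor of 3 counts equals 0.0359 to 0.101 CPM, and floors cover counting error only. The members and the gene lists were chosen with earlier results of these data known. Named genes were, in each list, the largest and smallest changes among called members, members of the core lists and the most abundant markers, and across all genes the largest changes called in both fits; other genes named were chosen after their values were seen. On simulated counts of 22320 genes for the 8-animal design, edgeR recovered 9% of genes changed by a log2 value of 1 and 71% of those changed by 2, with 3 unchanged genes called. For the P6H55 fit it recovered 50% and 93%, with 24 unchanged genes called. The simulation changed 100 genes at each size, far fewer than the 7363 called in the 8 animals, and drew animals without litter effects. Its rates therefore do not carry over to these data. Promoters were read from RefSeq windows on GRCm38.p6, a different build from that of the counts. Results for a few genes are not reported here.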

Additional observations from a re-analysis of the deposited data

Results flagged for a closer look

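Among 272 groups of 4 control animals looked at (genes named and lists), 13 (4.78%) held an animal whose gap to its nearest neighbor exceeded Dixon's critical share of the group's range, and chance flags about 1 in 20 such groups. Of these, 5 lay in the P7 controls and 8 in the P14 controls.

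In the P7 controls, P6H55-12 stood low for Ube2c at 30.25 CPM, high for Hbb-bs at 15.01 CPM and high for mitochondrial counts at 2.622% of its library. P6H55-7 stood high for Gabra6 at 0.2861 CPM, and P6H63-8 stood low for Ly6c2 at 0.3475 CPM.

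In the P14 controls, P6H8-7M stood high for 3 granule neuron genes, Gabra6 (59.2 CPM), Cbln3 (69.11 CPM) and Gabrd (12.66 CPM), for Fosb (719.7 CPM) and for Rara (13.59 CPM). P4H4-8M stood high for Lgals3 at 9.06 CPM, P4H4-7F low for Ifit3b at 2.611 CPM, and P6H8-8F apart for the phagocytosis and lysosome list at a mean log2 CPM of 7.812.

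Vps37b passed the test of control change minus HIE change, with a difference of 1.8317 on the log2 scale (adjusted p = 0.0262 in edgeR's test, up in controls and down in HIE). It did not pass with the P6H55 pups as the P7 controls (adjusted p = 0.0655 in edgeR's test), nor without P6H63-7 or P6H8-7M, among others. No litter held both treatments and the P7 HIE animals were all male, so treatment cannot be told apart from litter. In the controls each of the 4 P14 animals was above each of the 4 P7 pups.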

How the results depend on the processing

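The 7363 genes called in the 8 animals stayed within 1.5 times of that number with DESeq2 (9562), with other scalings and filters (7201 to 8066), with sex as a covariate (6034) and with the microglial score as a covariate (6930). They became 13016 with the P6H63 pups as the only P7 animals, 1552 with the P4H4 animals as the only P14 animals, 2624 with the P6H8 animals only, and 4275 among protein-coding genes only, where fewer genes were tested. Leaving out 1 animal gave 4755 (without P6H8-8F) to 8510 (without P6H55-7), and 4821 without P6H8-7M. The 6829 genes called with the P6H55 pups ranged from 3043 (without P6H55-7) to 6731, with 3315 without P6H55-12. The count of genes whose change differed between controls and HIE, 1 in all 16 animals, ranged from 0 to 1270 on leaving out 1 animal and was 0 with the P6H55 pups as the only P7 controls. Among 2269 values of 99 named genes under these settings, 1954 kept direction and call, 242 lost the call, 55 gained it and 18 changed sign. Leaving out 1 animal lost 2 (without P6H55-7) to 18 (without P6H8-8F) of their calls. With the P6H63 pups only, Gpr84 was 1.12, Ccl3 0.89 and Tnf 0.0142. With the score as covariate, Cx3cr1 was -0.20, Sall1, a microglial transcription factor, -0.77, Apoe -0.14 and Spi1 -1.26. With P6H55 pups only Sall1 was -0.39 and Spi1 -0.81, and against P6H8 alone -0.37 and -0.78. Spi1, at 0.02 in the 8 animals, was also -0.0048 with DESeq2, -0.0047 with DESeq2's size factors in edgeR, -0.0742 with library size only, -0.0226 with no filter, -0.0155 with P4H4 animals only, and ranged from -0.35 (without P6H63-8) to 0.57 (without P6H55-7) on leaving out 1 animal. The cause of these changes was not tested. Settings added after seeing the data were thinning of the P7 libraries to P14 depth (7248 calls), removal of other cells' markers before scaling (7336), the P6H55 pups against P6H8 alone (5333) and all settings of the P6H55 fit. No paired analysis was possible because the P7 and P14 samples were different animals from different litters.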
